A study of Mus musculus with 22 samples.

Results

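The 10 genes described here encode early-response proteins of the NR4A, KLF and IER families, namely *Nr4a1*, *Nr4a2*, *Nr4a3*, *Klf2*, *Klf4*, *Klf6*, *Klf10*, *Ier2*, *Ier3* and *Ier5*. They were chosen by symbol, and each matched a single row among the 23286 entries of the deposited table, of which 22745 carry 1 gene symbol. The table holds RNA-seq of mouse embryonic palatal mesenchyme (MEPM) cells, primary cells of the E13.5 palate from wild-type embryos, in 22 samples of 10 conditions. All cells were grown in serum and then serum starved overnight. In the ligand-alone conditions, 3 samples were stimulated for 4 hr with PDGFA (30 ng/mL, here PDGF) and 3 with FGF1 (50 ng/mL, here FGF), the latter together with 1 ug/mL of heparin. Of the 8 inhibitor conditions, each with 2 samples, 4 had the MEK inhibitor PD325901 (PD) at 1 uM and 4 the PI3K inhibitor LY294002 (LY) at 10 uM, each inhibitor with PDGF or FGF for 1 or 4 hr. Heparin was present with FGF and not with PDGF, so that their effects cannot be told apart, and cells without ligand or with a ligand alone for 1 hr are not analysed here.

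Immediate early genes are transcribed within minutes of a growth factor signal without new protein synthesis, and most of their mRNAs decay quickly. NR4A proteins are orphan nuclear receptors that need no known ligand, and their activity was not measured here. KLF proteins are zinc finger transcription factors that bind GC-rich and CACCC motifs, and IER proteins are unrelated or distantly related products grouped by their early induction. Several routes reach such genes. ERK phosphorylates ELK factors that work with SRF, cAMP and calcium signals act through CREB, and the ERK5 kinase acts through MEF2 factors, a known route to *Klf2* and *Klf4*.

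The promoters of the NR4A genes and of *Klf2* are shown because *Nr4a1*, *Nr4a3* and *Klf2* are the members that were higher with FGF + PD than with FGF alone, and *Nr4a2* is the remaining NR4A gene. Each is the RefSeq window of GRCm38.p6 from 250 bases before to 50 after an annotated start, written 5′ to 3′ on the gene's strand. Capitals mark TGACG, the core of the cAMP response element (CRE) to which CREB binds, on either strand (as TGACG or CGTCA), and the MEF2 site.
Nr4a1 (chr15:101266596-101266895, plus strand): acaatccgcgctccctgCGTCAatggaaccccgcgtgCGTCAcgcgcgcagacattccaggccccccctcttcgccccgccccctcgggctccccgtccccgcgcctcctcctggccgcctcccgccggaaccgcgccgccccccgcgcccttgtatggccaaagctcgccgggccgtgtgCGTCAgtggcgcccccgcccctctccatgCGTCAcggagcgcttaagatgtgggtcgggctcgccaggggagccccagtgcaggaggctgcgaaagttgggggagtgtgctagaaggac
Nr4a2 (chr2:57123954-57124253, minus strand): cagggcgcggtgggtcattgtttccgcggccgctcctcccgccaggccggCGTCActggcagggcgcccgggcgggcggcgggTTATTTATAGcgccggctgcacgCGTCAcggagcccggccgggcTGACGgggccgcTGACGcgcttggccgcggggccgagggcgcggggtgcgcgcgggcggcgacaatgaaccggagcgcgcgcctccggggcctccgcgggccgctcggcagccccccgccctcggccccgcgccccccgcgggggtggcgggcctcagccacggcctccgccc
Nr4a3 (chr4:48045055-48045354, plus strand): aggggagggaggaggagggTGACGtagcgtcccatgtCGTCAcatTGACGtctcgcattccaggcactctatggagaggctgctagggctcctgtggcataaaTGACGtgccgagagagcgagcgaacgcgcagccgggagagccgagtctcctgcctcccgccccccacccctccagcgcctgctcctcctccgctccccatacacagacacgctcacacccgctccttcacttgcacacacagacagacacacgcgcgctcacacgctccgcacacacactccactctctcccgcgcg
Klf2 (chr8:72318812-72319111, plus strand): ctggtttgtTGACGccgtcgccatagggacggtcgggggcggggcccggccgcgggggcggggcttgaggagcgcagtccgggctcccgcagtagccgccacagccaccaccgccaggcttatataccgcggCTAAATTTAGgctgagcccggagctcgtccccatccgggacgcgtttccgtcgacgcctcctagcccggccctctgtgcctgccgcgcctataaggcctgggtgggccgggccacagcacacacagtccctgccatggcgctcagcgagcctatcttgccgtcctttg

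The NR4A promoters each held 4 matches of TGACG on either strand. A window with 4 or more is rare, at 76 of 32851 promoters of this length (0.231%), whereas at least 1 match stood in 20.8%. *Klf2* and *Klf4* had 1 match each. The MEF2 site was present in the windows of *Nr4a2* and *Klf2*, against 3.19% of all promoters. The MEF2 site was searched on both strands as well, as were the other motifs, and a TGACG that is part of a full CRE counts in both. Of the 8 members with a window in the table, none held the full CRE TGACGTCA (1.79% of promoters) or the CArG box of SRF (1.63%), which says only that these letters are not in these windows. Also searched for, and absent from these 8 windows, were the ETS, EGR, AP-1, NF-kB and NBRE sites. The GC box stood in all 8 (35.7% of promoters) and the TATA box in 1 (13.6%). A match describes the sequence and is not evidence of binding. *Klf10* and *Ier2* are named only.

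Expression is given as FPKM, a fragment count scaled to transcript length and to the mapped total of the library, with 1 value per gene and condition that the authors pooled over the replicates. No spread between replicates, test or interval can be calculated from such values, and the reads behind each are unknown from the table. A gene is therefore counted as higher or lower when its FPKM differ by 1.5-fold or more and it exceeds an FPKM of 1 in either condition, and the percent of all entries past the same rule is given beside the members. The cells expressed all 9 palatal mesenchyme markers above an FPKM of 1, led by *Prrx1*, with a summed level of 619 to 754 FPKM over the conditions. In contrast, 7 of 8 epithelial, 5 of 8 endothelial and 5 of 6 measured macrophage and blood markers never exceeded an FPKM of 1. Of the endothelial markers, *Pecam1*, *Cdh5* and *Cldn5* stayed at or below 0.105 FPKM, whereas *Kdr*, *Egfl7* and *Tek* reached 4.39, 2.87 and 1.7. Endothelium is a known site of *Klf2* expression, and its part in the *Klf2* levels was not tested. The summed levels were 1.08 to 9.38 FPKM for epithelium, 2.66 to 8.23 for endothelium and 0.798 to 2.08 for macrophages and blood. Markers of neurons and glia summed to 76.1 to 151 FPKM, nearly all from *Stmn2* and *Tubb3*, and those of skeletal muscle to 12.6 to 27.3, mostly from *Acta1*. *Kdr* moved with LY, at 0.77 to 0.88 FPKM with it and 2.23 to 4.39 without, as did *Tubb3*, at 9.66 to 13.7 and 31.1 to 73.2. The part of these genes' cells in the results was not tested. In RNA from whole cultures, fewer responding cells and less RNA per cell cannot be told apart. Low values in the table can be failed estimates, since *Gapdh*, which every cell uses, never exceeded 0.676 FPKM. Every member was above 0 in every condition, and at most 2% of the 31-base words of any member's transcripts occur in other genes.

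The members differed widely in how much they varied across the 10 conditions. *Nr4a1* had the widest range, 77.9-fold from its lowest to its highest level, followed by *Nr4a3* at 23.9-fold and *Ier2* at 13.6-fold. *Klf4* had the narrowest, at 2.31-fold. The median range of the members was 4.3-fold, against 1.83-fold over 11905 genes above 0 in every condition, of which 41.3% ranged 2-fold or more. The highest level lay in the 1 hr FGF + LY condition for 7 members, in 1 hr FGF + PD for *Klf4* and *Klf6*, and in 4 hr FGF + LY for *Klf10*. The lowest lay in 4 hr PDGF + PD for 6 members.

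**Figure D1:**
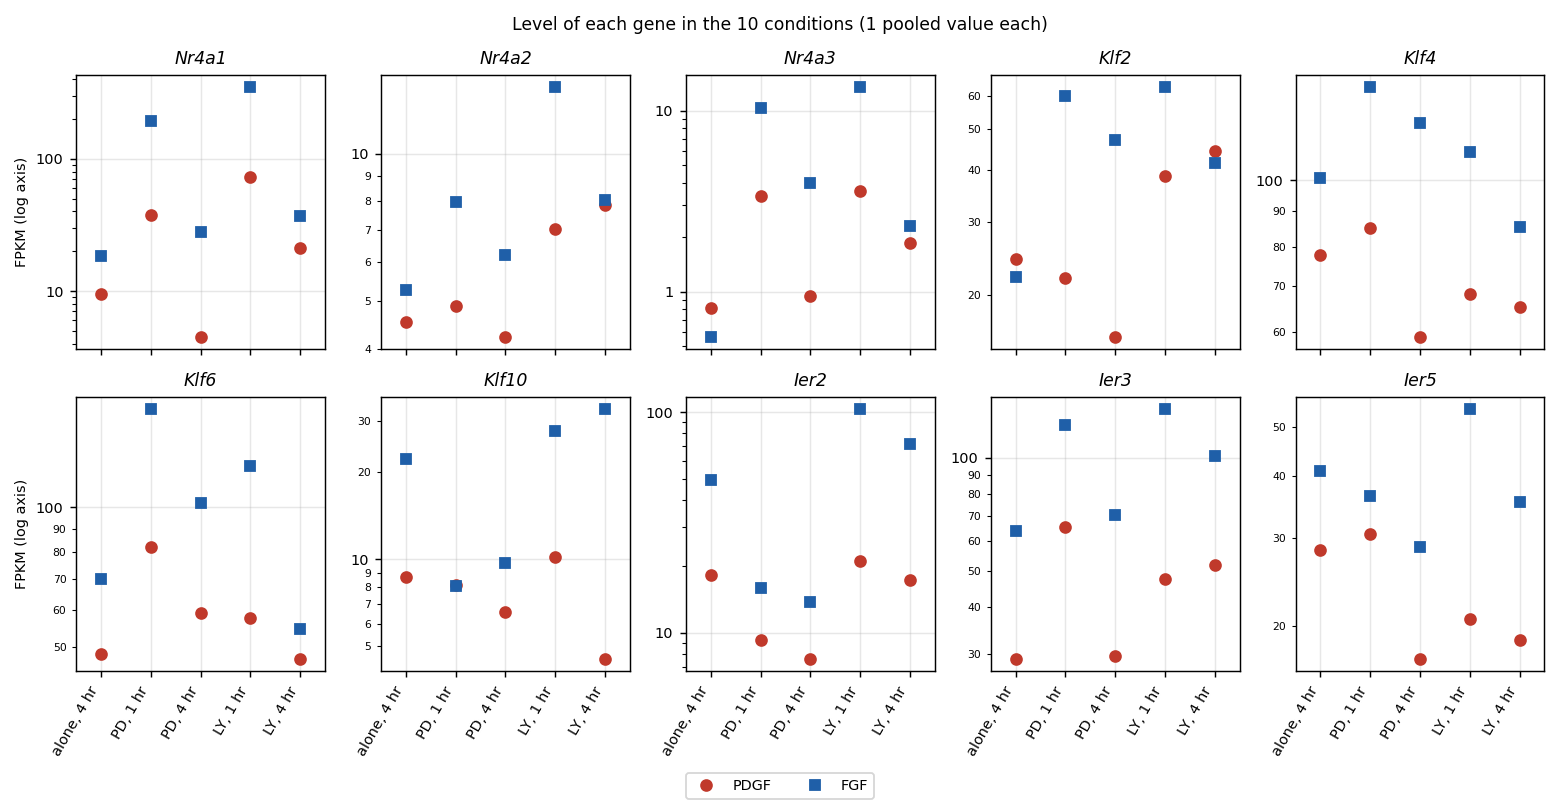
FPKM of each gene on a log axis in the 10 conditions, with PDGF as circles and FGF as squares, 1 value pooled over 2 or 3 samples per point. *Nr4a1* runs from 4.49 to 349.9 FPKM, while *Klf4* stays between 59.1 and 137.

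Among the NR4A receptors, *Nr4a1* (Nur77, mm10 chr15:101253902-101274795) was the most abundant and the most responsive. In PDGF-treated cells it was at 9.54 FPKM with ligand alone at 4 hr, at 37.5 and 4.49 with PD at 1 and 4 hr, and at 73.4 and 21.1 with LY. In FGF-treated cells the corresponding levels were 18.4 with ligand alone, 194 and 27.8 with PD, and 349.9 and 37.2 with LY. Every 1 hr level exceeded every 4 hr level, and with FGF *Nr4a1* was the gene with the highest level of all members at 1 hr under either inhibitor.

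*Nr4a3* (Nor1, mm10 chr4:48045078-48086447) resembled *Nr4a1* at a lower level in every condition. With PDGF it was at 0.811 FPKM alone, 3.4 and 0.95 with PD at 1 and 4 hr, and 3.59 and 1.86 with LY. With FGF it was at 0.564 FPKM alone, 10.4 and 4 with PD, and 13.49 and 2.32 with LY. Both ligand-alone levels lay below all 8 inhibitor levels, a pattern shared by 9.25% of 12298 entries. Whether the ligand-alone libraries were prepared or sequenced apart from the inhibitor libraries is not given in the sources used here, and its part in this pattern was not tested.

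*Nr4a2* (Nurr1, mm10 chr2:57106830-57124003), best known for its role in dopamine neurons, varied the least of the 3 receptors. It was at 4.53 FPKM with PDGF alone, 4.89 and 4.23 with PDGF + PD at 1 and 4 hr, and 7.03 and 7.85 with PDGF + LY. With FGF it was at 5.27 FPKM alone, 7.97 and 6.21 with PD, and 13.7 and 8.06 with LY. Its levels with LY were above those with PD at the same ligand and time in all 4 cases.

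Of the KLF genes, *Klf2* (mm10 chr8:72319062-72321654) set the ligands apart under PD. It was at 24.4 FPKM with PDGF alone, 22 and 15.9 with PDGF + PD at 1 and 4 hr, and 38.6 and 44.3 with PDGF + LY. With FGF it was at 22.1 FPKM alone, 60.2 and 47.2 with PD, and 63.2 and 41.6 with LY. *Klf2*, a regulator of endothelial and T cell quiescence, was thus high with FGF under either inhibitor but with PDGF only under LY.

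*Klf4* (mm10 chr4:55527137-55532475) and *Klf6* (mm10 chr13:5861489-5870393) were abundant in all conditions and reached their highest levels with FGF + PD at 1 hr. *Klf4*, a pluripotency and epithelial differentiation factor, was at 77.7 FPKM with PDGF alone, 85.2 and 59.1 with PDGF + PD at 1 and 4 hr, and 68.2 and 65.3 with PDGF + LY, against 101 with FGF alone, 137 and 121 with FGF + PD, and 109.95 and 85.5 with FGF + LY. *Klf6*, which is induced in many injured tissues, was at 48.3 FPKM with PDGF alone, 82 and 59.1 with PDGF + PD, and 57.7 and 47.1 with PDGF + LY, against 69.98 with FGF alone, 163 and 102 with FGF + PD, and 123 and 54.6 with FGF + LY. For both genes the level with PD was above the level with LY in 7 of 8 cases, the exception being *Klf4* with PDGF at 4 hr.

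*Klf10* (mm10 chr15:38291464-38300711), a TGF-beta-inducible repressor, behaved differently from the other KLF genes. It was at 8.67 FPKM with PDGF alone, 8.17 and 6.6 with PDGF + PD at 1 and 4 hr, and 10.2 and 4.53 with PDGF + LY. With FGF it was at 22.2 FPKM alone, 8.09 and 9.72 with PD, and 27.9 and 33.1 with LY. The 3 FGF conditions without PD stood above 20 FPKM, and the other 7 conditions lay at or below 10.2.

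*Ier2* (mm10 chr8:84661331-84662852), whose nuclear product has been linked to cell motility and FGF signaling, shared this pattern. It was at 18.3 FPKM with PDGF alone, 9.23 and 7.6 with PDGF + PD at 1 and 4 hr, and 21 and 17.3 with PDGF + LY. With FGF it was at 49.2 FPKM alone, 16 and 13.7 with PD, and 103 and 71.7 with LY. The 4 PD conditions held its 4 lowest levels.

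*Ier3* (IEX-1, mm10 chr17:35821713-35822911), a regulator of cell survival that is itself an ERK substrate, and *Ier5* (mm10 chr1:155096367-155099636), a relative of *Ier2* that promotes the heat shock response, completed the set. *Ier3* was at 29.1 FPKM with PDGF alone, 65.3 and 29.6 with PDGF + PD at 1 and 4 hr, and 47.5 and 51.7 with PDGF + LY, against 63.6 with FGF alone, 122 and 70.4 with FGF + PD, and 135 and 101 with FGF + LY. *Ier5* was at 28.3 FPKM with PDGF alone, 30.5 and 17.2 with PDGF + PD, and 20.6 and 18.7 with PDGF + LY, against 40.9 with FGF alone, 36.4 and 28.7 with FGF + PD, and 54.4 and 35.4 with FGF + LY. *Ier3* was higher with FGF than with PDGF in each of the 5 matched settings by 1.87-fold or more, and *Ier5* in each by 1.19-fold or more.

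The first question was how the ligands compare. With ligand alone at 4 hr, *Ier2* was 2.69-fold, *Klf10* 2.57-fold, *Ier3* 2.19-fold and *Nr4a1* 1.93-fold higher with FGF than with PDGF. Thus 4 of 9 members above an FPKM of 1 were higher and 0 were lower, against 4.37% of all 11598 entries higher and 6.58% lower. *Klf6* and *Ier5* lay just under the size rule, at 1.45-fold each. *Nr4a3* was below an FPKM of 1 with both ligands and was not counted. The median log2 ratio was 0.53 over the members and -0.02 over all entries.

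Under PD the members were higher with FGF in 8 of 10 cases at 1 hr and in 8 of 10 at 4 hr, with none lower. Of all entries, 3.76% were higher and 1.65% lower with FGF at 1 hr, and 6.2% and 13.2% at 4 hr. *Nr4a1* was 5.18-fold higher with FGF at 1 hr and 6.18-fold at 4 hr, *Nr4a3* 3.05-fold and 4.21-fold, and *Klf2* 2.74-fold and 2.98-fold. The 4 hr fold of *Nr4a3* rests on 0.95 FPKM with PDGF + PD and is uncertain. With a pseudocount of 1 its log2 ratio fell from 2.07 to 1.36, below the 1.52 of *Klf2*. *Klf4* was 1.6-fold and 2.05-fold higher. *Klf10*, in contrast, had the same level with both ligands at 1 hr (8.09 and 8.17 FPKM) and was 1.47-fold higher with FGF at 4 hr. The median log2 ratio of the members was 0.85 at 1 hr and 0.94 at 4 hr, against -0.001 and -0.003 over all entries. Genes that follow ERK were also higher with FGF under PD, 5 of 9 above an FPKM of 1 at 1 hr and 5 of 8 at 4 hr, with none lower (median log2 ratio 0.59 and 1.36). At 4 hr under PD, *Dusp4*, an ERK phosphatase, had an FPKM of 2.95 in FGF-treated and 0.34 in PDGF-treated cells, and *Fosl1*, an AP-1 subunit, had 6.26 and 0.528.

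Under LY at 1 hr all 10 members were higher with FGF, against 4.14% of all entries (2.76% were lower). *Ier2* was 4.9-fold higher, *Nr4a1* 4.77-fold, *Nr4a3* 3.76-fold and *Ier3* 2.83-fold, and the smallest ratios were those of *Klf4* and *Klf2*, at 1.61-fold and 1.64-fold. By 4 hr the gap had narrowed to 5 of 10 members, with none lower, against 8.95% and 9.51% of entries. *Klf10* was then 7.31-fold higher with FGF and *Ier2* 4.15-fold, while *Nr4a2* (1.03-fold), *Klf2* (1.07-fold lower) and *Klf6* (1.16-fold) were near equal. The median log2 ratio was 1.43 at 1 hr and 0.60 at 4 hr, against -0.005 over all entries at both times.

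**Figure D2:**
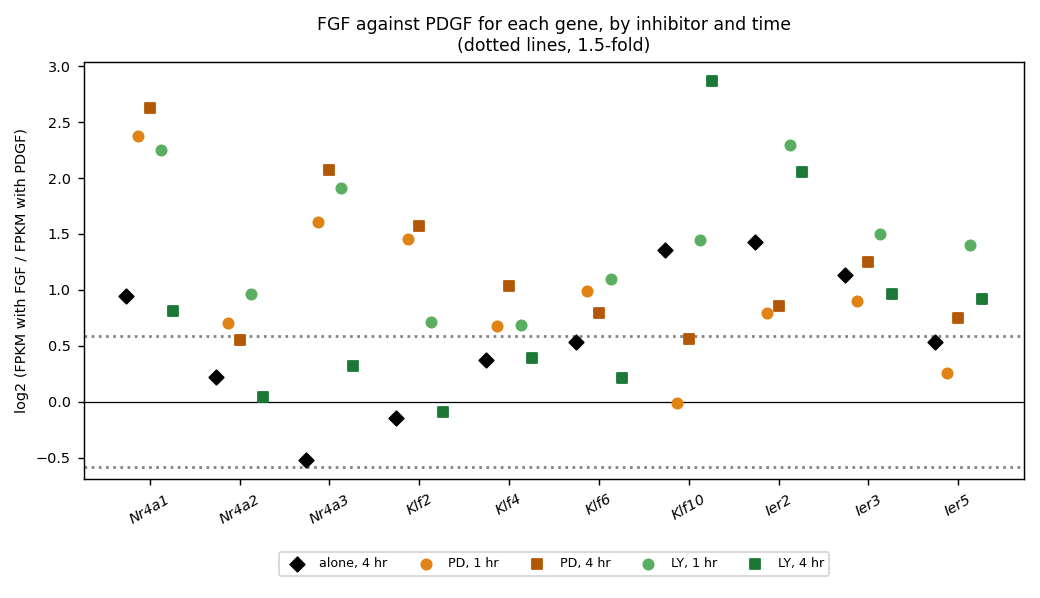
Log2 ratio of FPKM with FGF to FPKM with PDGF for each gene, with ligand alone at 4 hr (diamonds) and under PD or LY at 1 hr (circles) and 4 hr (squares); dotted lines mark 1.5-fold. For *Nr4a1*, *Nr4a3* and *Klf2* the 4 hr ratio is largest under PD (2.63, 2.07 and 1.57), and for *Klf10* and *Ier2* under LY (2.87 and 2.05). The *Nr4a3* ratio under PD at 4 hr rests on 0.95 FPKM with PDGF.

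The dependence on MEK was assessed at 4 hr as the ratio of ligand + PD to ligand alone. In FGF-treated cells, *Ier2* was 3.59-fold and *Klf10* 2.29-fold lower with PD, whereas *Nr4a3* was 7.09-fold, *Klf2* 2.14-fold and *Nr4a1* 1.51-fold higher. The remaining 5 members stayed within 1.5-fold, from *Ier5* at 1.42-fold lower to *Klf6* at 1.46-fold higher. The 3 higher and 2 lower of 10 stand beside 11.5% and 11.6% of all entries. The fold of *Nr4a3* rests on 0.564 FPKM with FGF alone and is uncertain, and *Nr4a1* falls under the size rule with a pseudocount of 1 (log2 ratio 0.57).

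In PDGF-treated cells PD left 4 of 9 members lower and none higher, against 9.57% and 11.9% of entries. *Ier2* was 2.4-fold, *Nr4a1* 2.12-fold, *Ier5* 1.65-fold and *Klf2* 1.54-fold lower. *Klf10*, lower with FGF + PD, was here 1.31-fold lower, from a level that was already 2.57-fold below that with FGF. *Nr4a1* and *Klf2* therefore lay past 1.5-fold upward with FGF and downward with PDGF. They were among the 15 of 11478 entries counted with both ligands that did so (0.131%). Another 20 entries (0.174%), with no member among them, lay past 1.5-fold in the reverse directions. The difference between the PD effects with FGF and PDGF was largest for *Nr4a3* (2.60 in log2), *Klf2* (1.72) and *Nr4a1* (1.68). Of the entries counted with both ligands, 1.86% differed by 1 or more in this direction. *Nr4a3*, at 0.811 FPKM with PDGF and 0.95 with PDGF + PD, is not among these entries, and its rank is uncertain. With a pseudocount of 1 its log2 ratios were 1.68 with FGF and 0.11 with PDGF, against 1.06 and -0.59 for *Klf2*. The difference between the PD effects was not tested.

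By the size rule, LY left more members higher than lower with both ligands. Without that rule, 7 member ratios lay above 1 and 3 below with FGF, and 5 above and 5 below with PDGF. With LY in FGF-treated cells, *Nr4a3* was 4.11-fold, *Nr4a1* 2.02-fold, *Klf2* 1.89-fold, *Ier3* 1.58-fold and *Nr4a2* 1.53-fold higher than with FGF alone, and no member was lower (5 and 0 of 10, against 11.4% and 12.7% of entries). *Klf10* and *Ier2* lay just below the size rule, at 1.49-fold and 1.46-fold higher. In PDGF-treated cells the same 5 genes passed the rule upward, with *Nr4a3* 2.29-fold, *Nr4a1* 2.22-fold, *Klf2* 1.82-fold, *Ier3* 1.78-fold and *Nr4a2* 1.73-fold higher, against 9.84% of entries. There *Klf10* was 1.91-fold and *Ier5* 1.51-fold lower, against 14.5% of entries. The call of *Ier5* was lost with a pseudocount of 1 and after rescaling by the median ratio (log2 ratio -0.57 in both), which left 1 member lower. The folds of *Nr4a3* rest on 0.564 FPKM with FGF alone and 0.811 with PDGF alone and are uncertain. With a pseudocount of 1 its log2 ratio with FGF fell from 2.04 to 1.09. The pair of comparisons has no condition in common, but each shares its ligand-alone condition with the PD comparison above. *Klf10* was the member with the largest difference between the LY effects, 1.51 in log2.

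**Figure D3:**
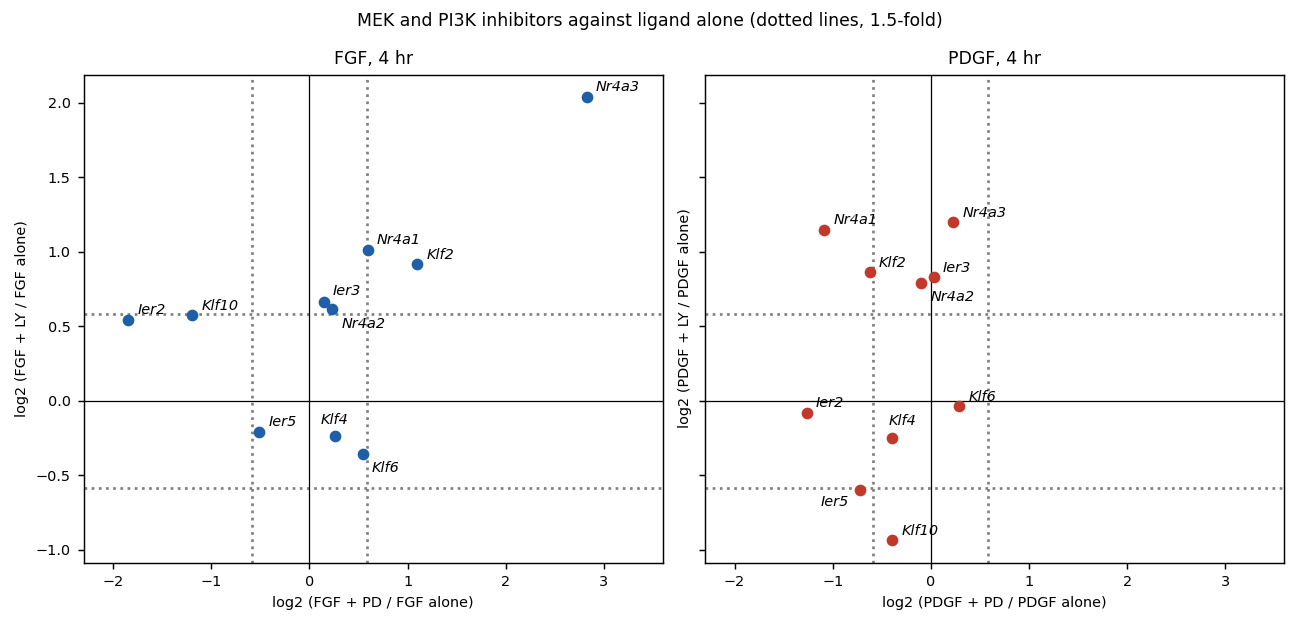
Log2 ratio of ligand + PD to ligand alone (horizontal) against ligand + LY to ligand alone (vertical) at 4 hr, with FGF at left and PDGF at right; both axes of a panel share the ligand-alone condition, and dotted lines mark 1.5-fold. *Ier2* and *Klf10* lie at -1.84 and -1.19 on the PD axis with FGF, and *Klf2* lies at 1.10 with FGF and -0.62 with PDGF.

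Since the ligands alone were not measured at 1 hr in these samples, the inhibitors were compared with each other. At 1 hr with FGF, *Ier2* was 6.45-fold, *Klf10* 3.45-fold, *Nr4a1* 1.8-fold and *Nr4a2* 1.72-fold lower with PD than with LY, and none was higher (4 and 0 of 10, against 7.78% and 12% of entries). *Klf2* (1.05-fold) and *Ier3* (1.1-fold) were nearly equal under the inhibitors. With PDGF, *Ier2* was 2.28-fold, *Nr4a1* 1.96-fold and *Klf2* 1.75-fold lower with PD, against 6.21% of entries, and again none was higher, against 8.86%.

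At 4 hr the inhibitors were compared in the same way. With PDGF, 6 of 10 members were lower with PD than with LY, led by *Nr4a1* at 4.7-fold and *Klf2* at 2.79-fold, and none was higher (6.97% and 12.8% of entries). With FGF, *Ier2* was 5.23-fold and *Klf10* 3.41-fold lower with PD, while *Klf6* and *Nr4a3* were 1.87-fold and 1.73-fold higher, against 11.6% and 12.6% of entries. The median log2 ratio of the members was -0.85 with PDGF and -0.34 with FGF, against 0.04 and -0.001 over all entries.

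Transience was followed as the ratio of 4 hr to 1 hr under the same ligand and inhibitor. *Nr4a1* was lower at 4 hr in all 4 settings, by 9.41-fold with FGF + LY, 8.35-fold with PDGF + PD, 6.99-fold with FGF + PD and 3.47-fold with PDGF + LY. *Nr4a3* was lower by 5.82-fold, 3.58-fold, 2.6-fold and 1.93-fold in the same order. No other member was lower at 1.5-fold in all 4 settings. *Klf6* was 2.25-fold lower at 4 hr with FGF + LY and 1.6-fold with FGF + PD, and *Ier3* was 2.2-fold lower with PDGF + PD and 1.73-fold with FGF + PD.

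No member was higher at 4 hr than at 1 hr by the size rule in any of the 4 settings, in which 4.44% of entries were higher with FGF + PD, 11.4% with FGF + LY, 8.27% with PDGF + PD and 4.91% with PDGF + LY. Lower were 4 of 10 members with FGF + PD (9.92% of entries), 6 of 10 with FGF + LY (12.2%), 4 of 10 with PDGF + PD (3.63%) and 3 of 10 with PDGF + LY (5.51%). *Klf10* was 2.26-fold lower at 4 hr with PDGF + LY, and with FGF it was 1.2-fold higher with PD and 1.19-fold higher with LY. *Ier2* and *Klf4* stayed within 1.5-fold of their 1 hr level throughout.

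**Figure D4:**
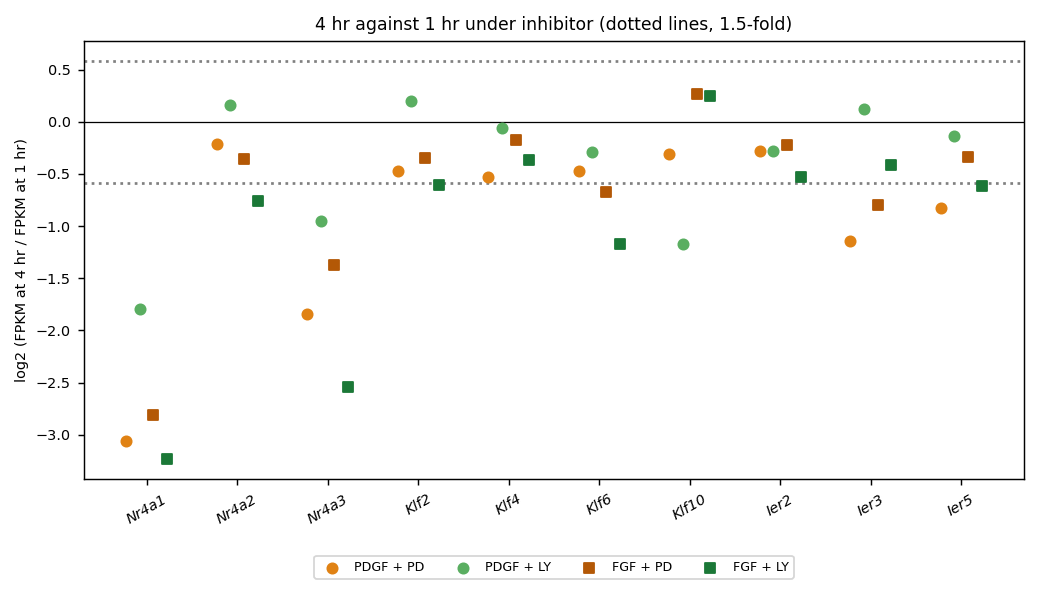
Log2 ratio of FPKM at 4 hr to FPKM at 1 hr for each gene under PDGF (circles) or FGF (squares) with PD or LY; dotted lines mark 1.5-fold. *Nr4a1* lies between -3.23 and -1.80, and no point reaches the upper line.

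Across the 10 conditions, which share ligands, inhibitors and the scaling of a single table, the members fell into related patterns. Of 45 pairs, 9 had a Pearson r of log2(FPKM + 1) above 0.8, and none was below 0. The closest were *Nr4a1* with *Nr4a3* (r = 0.93) and *Klf10* with *Ier2* (0.89), and the least alike were *Klf6* with *Ier2* (0.10) and *Klf6* with *Klf10* (0.16). Among 2430 other genes that reached 5 FPKM and varied 2-fold, those most like *Nr4a1* were *Btg2*, an antiproliferative early gene (0.94), and *Zfp36l1*, an mRNA decay factor (0.92), and the same genes led for *Nr4a3* (0.92 and 0.93). The nearest to *Ier2* was *Dusp5*, a phosphatase of ERK (0.98), and the nearest to *Klf10* was *Ereg*, a ligand of the EGF receptor (0.97). The nearest to *Klf2* was *Dusp1*, a phosphatase of JNK and p38 (0.86), to *Klf4* the kinase gene *Plk2* (0.92), to *Klf6* *Zfp948* (0.97) and *Atf3* (0.95), to *Nr4a2* *Arl5b* (0.94), to *Ier3* *Arid5a* (0.96) and to *Ier5* *Ets1* (0.97). These values describe 10 conditions and were not tested.

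The other genes of these families and routes gave a frame for the members. Of 13 further KLF genes, 10 exceeded an FPKM of 1. With ligand alone at 4 hr, 2 were higher with FGF than with PDGF and 2 lower, against 4.37% and 6.58% of all entries. Higher were *Klf13* (19.7 against 10.8 FPKM) and *Klf16* (15.1 against 9.06), and lower were *Klf15* (0.854 against 2.02) and *Klf8* (1.16 against 2). With PD in FGF-treated cells 4 were higher, among them *Klf11* (4.19 against 1.74 FPKM), and *Klf16* was lower, against 11.5% of all entries higher and 11.6% lower. *Ier5l*, a relative of *Ier5*, was at 14.8 FPKM with FGF alone, 8.56 with PD and 15.7 with LY at 4 hr. The RXR genes *Rxra* and *Rxrb*, whose products pair with NR4A1 and NR4A2, passed the size rule in none of the 17 comparisons, at 9.42 to 13.8 and 16.7 to 27 FPKM.

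Of 10 genes that follow ERK, all 10 were lower with PD at 4 hr in FGF-treated and in PDGF-treated cells. Of all entries, 11.6% were lower with PD in FGF-treated and 9.57% in PDGF-treated cells. The median log2 ratio of the 10 genes was -2.84 with FGF and -3.29 with PDGF. With LY 5 of them were higher in FGF-treated cells and 1 lower in PDGF-treated cells. *Dusp6*, a phosphatase specific for ERK, was at 51.8 FPKM with FGF, 2.16 with FGF + PD and 109 with FGF + LY at 4 hr, an order that *Ier2* and *Klf10* shared and *Nr4a3*, *Klf2* and *Klf6* did not. *Srf* was at 29.7, 28.4 and 37.3 FPKM in these conditions. Of the 6 genes of SRF and its cofactors 1 was higher and 1 lower with FGF + PD, against 11.5% and 11.6% of all entries. These shares also stand beside the counts with FGF + PD of the CREB target and MEF2 genes that follow. The CREB factors and coactivators stayed within the size rule under PD with both ligands at 4 hr. Of 5 CREB target genes in FGF-treated cells *Nfil3* was higher (57.1 against 31.1 FPKM) and *Sik1* lower (2.06 against 4.71). With PDGF + PD *Nfil3* was also higher (32.5 against 21.5 FPKM) and none was lower, against 11.9% and 9.57% of all entries. Of 5 expressed genes of ERK5 and MEF2, *Mef2c* (5.33 against 1.9 FPKM) and *Mef2d* (38 against 22) were higher with FGF + PD than with FGF, and none passed with PDGF + PD. FOXO target genes were higher with LY at 4 hr in 4 of 8 cases with PDGF, with none lower, and in 2 of 7 with FGF, where *Cited2* was lower (52.1 against 81 FPKM). With LY, 9.84% of all entries were higher and 14.5% lower with PDGF, and 11.4% and 12.7% with FGF. Of 6 expressed reference genes, only *Pgk1* passed the rule with ligand alone (16.5 FPKM with FGF, 25.4 with PDGF). None did with an inhibitor against ligand alone at 4 hr, but *Pgk1* and *Hprt* lay just under the size rule. With PDGF + LY, *Pgk1* was at 16.9 FPKM and *Hprt* at 44.6, against 25.4 and 66.8 with PDGF alone. With FGF + PD, *Pgk1* was at 24.6 FPKM, against 16.5 with FGF alone.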

How the data were processed

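Poly-A RNA was sequenced in 22 samples. The submitters' processing notes name CASAVA for base calls, TopHat for alignment, the mm10 genome and Cuffdiff, from which the authors took FPKM. Tool versions are not given in the sources used here. The deposited FPKM are 1 value per entry and condition, pooled over the replicates, so that depth and spread are unknown from the table and no test was run. Another 3 columns, of another series, were not used. RefSeq identifiers were matched to symbols of GRCm38.p6, and all 10 members had 1 row each.

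Ratios were calculated without a pseudocount or further scaling in 17 comparisons. The size rule, the FPKM minimum and 10 gene lists of 66 genes, of which *Rpl13a* matched no entry of its own, were chosen with earlier results of these data known, as were the members. All members are named. For each, the 2 genes most like it were ranked by Pearson r, of which up to 2 are given. Promoters are those of RefSeq, with a window for 8 of 10 members. The procedure was run on simulated data, and the error of the calls in the deposited data was not tested. Alternatives were a pseudocount of 1, no filter, an FPKM of at least 5, rescaling by the median ratio and a rule of 2-fold. Versions were 3.11.15 for Python, 2.3.3 for pandas, 2.4.6 for NumPy and 3.10.9 for matplotlib.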

Additional observations from a re-analysis of the deposited data

Results flagged for a closer look

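*Nr4a1* and *Klf2* were singled out because PD moved them past 1.5-fold in opposite directions with the 2 ligands at 4 hr. The log2 ratio of *Nr4a1* was 0.59 with FGF and -1.09 with PDGF, and that of *Klf2* was 1.10 with FGF and -0.62 with PDGF. With a pseudocount of 1 the ratio of *Nr4a1* with FGF was 0.57, under the size rule, so that only *Klf2* kept the pattern there. Each ratio compares pooled values, so the difference between the ligands was not tested.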

How the results depend on the processing

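No paired analysis was possible because the deposited values are pooled over the replicates, and for the same reason no replicate could be left out. Without a filter on low values, every count of members higher or lower was the main count. With the rule of 2-fold the counts shrank. Higher with FGF were then 3 members with ligand alone, 3 under PD at 1 hr and 5 under PD at 4 hr. Under LY 7 members were higher with FGF at 1 hr, in place of all 10, and 2 at 4 hr. With LY at 4 hr, 2 were higher than with FGF alone and 2 higher and 0 lower than with PDGF alone. With PD at 4 hr, 2 were lower than with PDGF alone, and 2 in place of 3 were higher than with FGF alone. Between PD and LY, 2 were lower with PD at 1 hr with FGF and 1 with PDGF, and at 4 hr 0 were higher with FGF and 3 lower with PDGF. From 1 to 4 hr, 2 were lower with FGF + PD and 3 with FGF + LY. *Ier5* with PDGF + PD (1.78-fold) and *Nr4a3* with PDGF + LY (1.93-fold) were no longer counted as lower at 4 hr. *Ier5* with LY in PDGF-treated cells lies at the limit, since 1 member in place of 2 was lower with a pseudocount of 1 and after rescaling (log2 ratio of *Ier5* -0.57 in both). Rescaling also added *Ier5* (-0.59) to the members lower with PD than with LY at 1 hr with FGF, 5 in place of 4. With a pseudocount *Nr4a1* with FGF + PD (0.57) and *Nr4a2* with FGF + LY (0.53) and *Nr4a3* with PDGF + PD against PDGF + LY at 4 hr (-0.55) dropped under the rule. With an FPKM of at least 5, 1 member in place of 2 was higher with PD than with LY in FGF-treated cells at 4 hr, since *Nr4a3* was no longer counted. Other counts that held *Nr4a3* below 5 FPKM fell as well. Among them, 7 in place of 8 were higher with FGF than with PDGF under PD at 4 hr. Against FGF alone, 2 in place of 3 were higher with PD and 4 in place of 5 with LY. Rescaling divided the ratios by 0.983 to 1.02. Single FPKM have no error, so ratios close to 1.5-fold are the least certain.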

Other observations

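Besides *Nr4a1* and *Klf2*, few entries were higher with FGF + PD than with FGF and lower with PDGF + PD than with PDGF. The 15 entries of this pattern, *Nr4a1* and *Klf2* among them, were examined after their values were seen. They included the small nucleolar RNAs *Snora15*, *Snora2b* and *Snora52*, each at 0 FPKM with PDGF + PD, which can be failed estimates in poly-A RNA. *Dusp1* was at 56.9 and 91 FPKM with FGF without and with PD and at 35.6 and 19.8 with PDGF. *Inhbb*, which encodes an activin and inhibin subunit, was at 4.42 and 10.2 FPKM with FGF and at 3.46 and 1.96 with PDGF. *Creb5*, a relative of the CREB factors, was at 1.79 and 4.35 FPKM with FGF and at 1.05 and 0.637 with PDGF. The opposite pattern, lower with FGF + PD and higher with PDGF + PD, was found for 20 entries (0.174%).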
